A study of Mus musculus with 36 samples.

Results

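The comparison described here is dexamethasone against vehicle after 1 h in primary mouse astrocyte cultures, chosen by the treatment label of each array: 2 arrays of cultures given about 100 nM dexamethasone for 1 h and 2 arrays of cultures given vehicle for 1 h, 4 of the 36 arrays of the study. Dexamethasone is a synthetic glucocorticoid. All cultures came from newborn C57B/6 pups. They are named cortical astrocytes, although the growth protocol gives cortex or hippocampus as the source, and were grown in serum-containing medium to about confluence. The study ran both treatments at 8 times from 0.25 h to 24 h and read total RNA on Illumina BeadChips. The arrays of a group carry replicate numbers 1 and 2. Nothing states that they came from separate cultures or litters, so a p-value here speaks for the variation among these arrays and that variation may be technical. The question was which transcripts had moved by 1 h and how far each call rests on single arrays.

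Glucocorticoids bind a receptor that waits in the cytoplasm with heat shock chaperones, moves to the nucleus, and there binds DNA at short palindromic elements or meets other factors such as NF-kappaB and AP-1. The genes it acts on directly can change before any new protein is made. In brain, astrocytes express this receptor abundantly, and glucocorticoids there are known to act on metabolism, gap junctions and inflammatory signalling.

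Levels are given as the log2 of the background-corrected intensity, on which 5.83 marks the upper edge of the background. Differences are dexamethasone minus vehicle on that scale, with the standard error (SE) of the limma fit. That fit took each gene's spread from the 16 groups of all 36 arrays. A gene is called at a Benjamini-Hochberg adjusted p under 0.05 over 20633 genes.

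The 4 arrays of 1 h resembled each other by number more than by treatment. Dexamethasone and vehicle array 1 correlated at r = 0.990 across genes, and dexamethasone and vehicle array 2 at r = 0.995. The correlation was only 0.975 between the pair of dexamethasone arrays and 0.975 between the pair of vehicle arrays. At least 2-fold apart were 968 genes between the dexamethasone arrays and 1030 between the vehicle arrays, against 195 between the treatments for number 1 and 45 for number 2. All 16 astrocyte markers lay above background on all 4 arrays, as did 13 of 14 measured microglia markers, and the summed microglia signal was 28989 and 21202 in dexamethasone cultures, against 23110 and 21625 in vehicle cultures. No measured marker of microglia, oligodendrocyte lineage, neurons, fibroblasts, endothelium or ependyma was called at 1 h, where 0.0679% of all genes were.

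After 1 h, 13 listed symbols were higher with dexamethasone and 1 was lower. The risers comprised signalling brakes (Errfi1, Tsc22d3), the clock repressor Per1, the transcription factor Klf9 under 2 listings, genes of fuel handling (Pdk4, Ppp1r3g), the connexin gene Gjb6, the secreted peptide Adm, the actin-associated Fam107a, and Tcim, Gsc and A930039A15Rik. The probe of Pcgf5 listed as 5830406C17Rik was lower. Calls made up 0.0679% of all genes, or 0.063% for rises and 0.00485% for falls, and 306 genes (1.48%) had an unadjusted p under 0.05. The median difference of all genes was 0.01. At least 2-fold changes were few, with 27 genes higher and 12 lower in dexamethasone cultures, and 13 of the 27 were called. The smallest called rise was 1.16, that of Pdk4. Exact permutation of 2 against 2 arrays cannot give a two-sided p below 0.333, so the calls rest on the spread borrowed from the other groups.

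**Figure D1:**
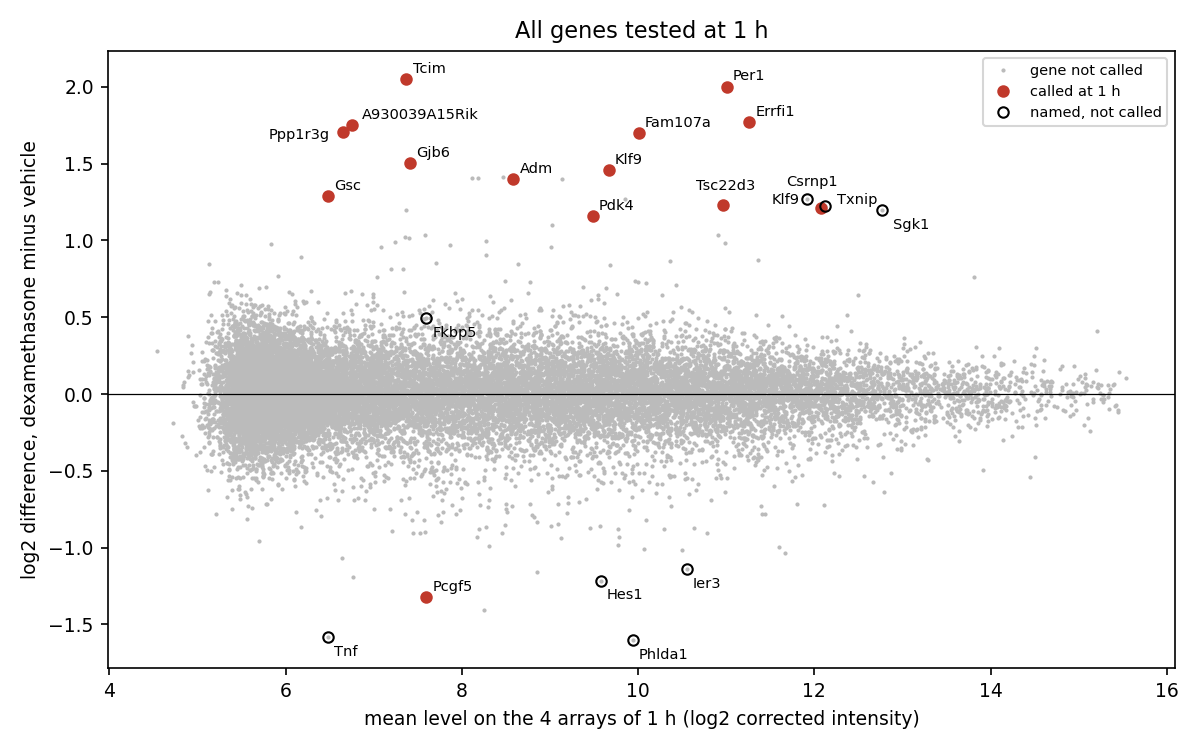
Each point is 1 of the 20633 genes, with the mean log2 level on the 4 arrays of 1 h on the horizontal axis and the log2 difference, dexamethasone minus vehicle, on the vertical axis. The 13 called rises lie between 1.16 and 2.05 and the called fall at -1.32, while open circles mark named genes that were not called, such as Phlda1 at -1.60 and Sgk1 at 1.20.

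Among genes that restrain other signals, Errfi1 had the smallest adjusted p. It encodes a feedback inhibitor that silences the EGF receptor kinase. Errfi1 stood at 12.11 and 12.19 in dexamethasone cultures, against 10.37 and 10.38 in vehicle cultures. The vehicle pair differed by 0.01 and the groups lay 1.72 apart. Errfi1 rose by 1.77 (SE 0.21, 3.41-fold, limma adjusted p = 0.00021). Tsc22d3 encodes GILZ, a leucine zipper protein that binds and restrains NF-kappaB and AP-1. It stood at 11.69 and 11.46 in dexamethasone cultures, against 10.40 and 10.29 in vehicle cultures, and rose by 1.23 (SE 0.19, limma adjusted p = 0.0051). Its groups did not overlap. A dimmer probe of Tsc22d3 gave 6.93 and 5.90 in dexamethasone cultures and 5.97 and 5.52 in vehicle cultures, where the groups overlapped and the difference of 0.67 (SE 0.66) was not called.

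Per1, a repressor of the circadian clock whose transcription glucocorticoids are known to raise, was carried by a pair of probes that moved alike. The brighter one stood at 12.07 and 11.94 in dexamethasone cultures, against 10.17 and 9.85 in vehicle cultures. The other stood at 10.61 and 10.22 in dexamethasone cultures, against 8.69 and 8.42 in vehicle cultures. On both probes each dexamethasone array lay above each vehicle array by more than 1.5 on the log2 scale. The brighter probe rose by 2.00 (SE 0.34, 4-fold, limma adjusted p = 0.0089). The difference on the other was 1.86 (SE 0.30, limma adjusted p = 0.0099 over all probes).

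Klf9, a Krüppel-like transcription factor, was measured under its own symbol and as 2310051E17Rik, so the 14 listed symbols stand for 13 genes. Under its own symbol it stood at 12.61 and 12.76 in dexamethasone cultures, against 11.28 and 11.68 in vehicle cultures, and rose by 1.21 (SE 0.19, limma adjusted p = 0.0051). As 2310051E17Rik it stood at 10.71 and 10.08 in dexamethasone cultures, against 8.89 and 8.99 in vehicle cultures, and rose by 1.46 (SE 0.24, limma adjusted p = 0.0052). The widest pair differed between the probes. For the first it was the vehicle pair (0.40 apart) and for the second the dexamethasone pair (0.63 apart).

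Tcim, listed as 1810011O10Rik, is a small regulator known to enhance Wnt signalling. It stood at 8.33 and 8.47 in dexamethasone cultures, against 6.19 and 6.5 in vehicle cultures. Its rise of 2.05 (SE 0.28, 4.15-fold, limma adjusted p = 6e-04) was the largest of all called genes in the main fit, and both vehicle arrays lay less than 1 above the background edge. That rank depended on the background correction. Without it Tcim rose by 1.68, less than Per1 (1.96) and Errfi1 (1.74). A further probe listed under the same symbol was above background on none of the 4 arrays.

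A pair of genes for fuel handling rose. Pdk4, the kinase that shuts pyruvate dehydrogenase and so spares glucose, stood at 10.19 and 9.94 in dexamethasone cultures, against 9.07 and 8.74 in vehicle cultures. It rose by 1.16 (SE 0.22, limma adjusted p = 0.028). Another Pdk4 probe, above background on 1 of the 4 arrays, gave 0.25 (SE 0.23) and was not called. Ppp1r3g, listed as 1600032L17Rik, brings protein phosphatase 1 to glycogen and stood at 7.10 and 7.92 in dexamethasone cultures, against 5.62 and 5.98 in vehicle cultures. Only 1 of the 2 vehicle arrays was above background, and the rise was 1.70 (SE 0.28, limma adjusted p = 0.0052). A dim second probe of Ppp1r3g gave -0.06 (SE 0.23), so the probes of this gene disagree.

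Gjb6, connexin 30 of astrocyte gap junctions, stood at 8.01 and 8.30 in dexamethasone cultures, against 6.40 and 6.91 in vehicle cultures, and rose by 1.5 (SE 0.20, limma adjusted p = 6e-04). Number 1 was the lower array in both treatments. Connexin 43, Gja1, the other main astrocyte connexin, stood at 14.36 and 14.00 in dexamethasone cultures, against 14.24 and 14.05 in vehicle cultures, and was not called (0.03, SE 0.16). The sign of that difference turned without dexamethasone array 1 (-0.15) and without vehicle array 2 (-0.06). Adm, the precursor of the vasodilator peptide adrenomedullin, stood at 9.24 and 9.33 in dexamethasone cultures, against 7.79 and 7.99 in vehicle cultures, and rose by 1.40 (SE 0.22, limma adjusted p = 0.0052). Arrays of the same treatment lay within 0.20 for Adm, narrower than for most called genes. Fam107a, an actin-associated protein induced by stress, stood at 11.09 and 10.62 in dexamethasone cultures, against 9.19 and 9.12 in vehicle cultures, and rose by 1.70 (SE 0.31, limma adjusted p = 0.019).

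The remaining 3 calls were those of Gsc, A930039A15Rik and a probe of Pcgf5. Gsc, the homeobox factor goosecoid known from gastrulation, stood at 6.72 and 7.54 in dexamethasone cultures, against 5.66 and 6.02 in vehicle cultures (1.29, SE 0.26, limma adjusted p = 0.049). The uncharacterised transcript A930039A15Rik stood at 8.05 and 7.21 in dexamethasone cultures, against 6.03 and 5.73 in vehicle cultures (1.75, SE 0.32, limma adjusted p = 0.018). For both transcripts 1 of the 2 vehicle arrays was above background and the dexamethasone arrays differed by over 0.8. The Gsc call was lost with no background correction (0.93, adjusted p = 0.10) and with array weights (adjusted p = 0.17). The probe listed as 5830406C17Rik, which RefSeq places in Pcgf5, a subunit of Polycomb repressive complex 1, stood at 6.74 and 7.13 in dexamethasone cultures, against 8.11 and 8.40 in vehicle cultures. It fell by 1.32 (SE 0.23, limma adjusted p = 0.0089). The brighter probe listed as Pcgf5 stood at 11.68 and 11.73 in dexamethasone cultures, against 11.63 and 11.65 in vehicle cultures (0.07, SE 0.17), so the fall was seen on 1 of 2 probes.

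**Figure D2:**
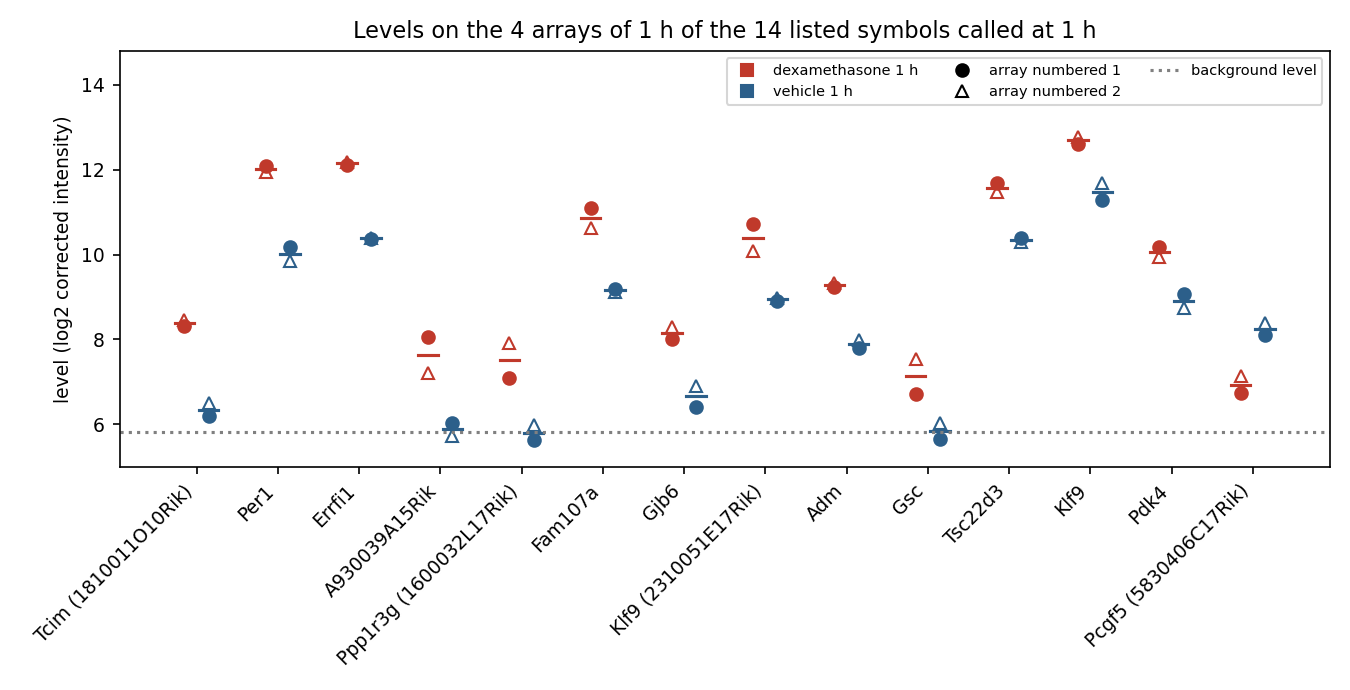
Log2 level of each called gene on the 2 dexamethasone and the 2 vehicle arrays of 1 h, with circles for arrays numbered 1, triangles for arrays numbered 2, short lines for group means and the dotted line at the background level of 5.83. For every gene the dexamethasone and vehicle arrays are apart, from a gap of 0.70 for Gsc to 1.83 for Tcim.

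Promoter sequence is shown for the 2 called genes with a half-site of the receptor element in some, though not all, of their windows. Sgk1, which was not called at 1 h, is shown because it holds 1 of the 3 full elements found in the table's 32851 windows. Windows of 300 bases, 250 before to 50 after a gene start, come from RefSeq on mouse build GRCm38.p6 and run along the gene's own strand. Capitals mark the half-sites AGAACA and TGTTCT, which are each other's complement and were therefore searched on both strands, and the full palindrome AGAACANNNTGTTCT, which contains both. A match describes letters and was not tested for binding.
Sgk1, chr10:21993640-21993939, plus strand, kinase, with half-sites starting at -242, -189 and -180 from the gene start: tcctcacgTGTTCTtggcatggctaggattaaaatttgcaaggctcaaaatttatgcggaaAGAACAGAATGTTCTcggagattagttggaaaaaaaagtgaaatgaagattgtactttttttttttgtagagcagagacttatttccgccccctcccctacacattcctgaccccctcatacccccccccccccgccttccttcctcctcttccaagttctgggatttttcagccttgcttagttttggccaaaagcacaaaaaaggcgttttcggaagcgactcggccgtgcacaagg
Fam107a, chr14:8309730-8310029, minus strand, with half-sites starting at -158 and -110: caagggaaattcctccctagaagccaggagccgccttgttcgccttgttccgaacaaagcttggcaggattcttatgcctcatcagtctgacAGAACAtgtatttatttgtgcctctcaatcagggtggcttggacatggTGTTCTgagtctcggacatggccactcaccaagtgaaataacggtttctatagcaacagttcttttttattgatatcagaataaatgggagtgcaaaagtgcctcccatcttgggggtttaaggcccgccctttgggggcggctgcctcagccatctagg
Tsc22d3, chrX:140600473-140600772, minus strand, with a half-site starting at -185: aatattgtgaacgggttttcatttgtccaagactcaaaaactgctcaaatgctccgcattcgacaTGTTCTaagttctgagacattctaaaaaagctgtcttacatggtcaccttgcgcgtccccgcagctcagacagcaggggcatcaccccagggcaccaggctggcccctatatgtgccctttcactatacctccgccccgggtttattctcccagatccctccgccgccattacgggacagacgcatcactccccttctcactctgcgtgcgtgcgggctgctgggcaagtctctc
Of the 13 called genes, 11 had windows in the table (19 windows in all). A half-site was in 3 of the 19 (15.8%), against 19.0% of all 32851 windows, and the full palindrome in 0 of the 19, against 3 of all windows (0.00913%). Half-sites were thus about as common in these windows as elsewhere. The Fam107a windows with half-sites start at 8309728 and 8309730 and overlap, so the 3 windows stand for 2 of the 11 genes.

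How far each call held without single arrays differed between genes. The SE of every called gene grew whichever array was left out, since fewer arrays remained. A call near the threshold could thus be lost though the difference hardly moved. When 1 array of 1 h is left out its group has 1 array, which is then assumed to vary as the other groups do. The replicate numbers are then unequal between the treatments, so a shift mixes the difference between numbers with that between treatments. Errfi1 alone kept its call in all 4 such fits, with differences of 1.73 to 1.81 and adjusted p from 0.00395 to 0.0131. Tcim and Gjb6 kept theirs in 3 and lost it without vehicle array 1 (1.90 and 1.25, adjusted p = 0.0869 each). Ppp1r3g kept its call in 2 of the 4, without dexamethasone array 1 (2.12) and without vehicle array 2 (1.88), and lost it without dexamethasone array 2 (1.29, adjusted p = 0.469) and without vehicle array 1 (1.52, adjusted p = 0.25).

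Calls that held in 1 of the 4 fits were Tsc22d3, both Klf9 listings, Pcgf5, A930039A15Rik and Gsc. Tsc22d3, 2310051E17Rik, the Pcgf5 probe and A930039A15Rik were called only with dexamethasone array 2 left out, at adjusted p of 0.0324, 0.0114, 0.0324 and 0.027. For these 4, array 2 was the dexamethasone array closer to vehicle. Gsc was called only without dexamethasone array 1 (adjusted p = 0.0161), and Klf9 under its own symbol only without vehicle array 2 (adjusted p = 0.0115). The differences themselves kept their direction throughout. Tsc22d3 ran from 1.12 to 1.34, Klf9 from 1.01 to 1.41, 2310051E17Rik from 1.14 to 1.77, the Pcgf5 probe from -1.51 to -1.13, A930039A15Rik from 1.33 to 2.17 and Gsc from 0.88 to 1.69.

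Per1, Adm, Fam107a and Pdk4 lost their call whichever array was left out, although their arrays lay well apart. Per1 ran from 1.84 to 2.16 with adjusted p from 0.108 to 0.296, and Adm from 1.30 to 1.5 with adjusted p from 0.0512 to 0.172. Fam107a ran from 1.47 to 1.93 with adjusted p from 0.0831 to 0.699, and Pdk4 from 1.00 to 1.32 with adjusted p from 0.122 to 0.856. The fits called 5 genes without dexamethasone array 1, 7 without dexamethasone array 2, 1 without vehicle array 1 and 5 without vehicle array 2, and all of these were among the 14. Leaving out an array also moved the median of all genes, to 0.07, -0.04, -0.06 and 0.07 in the same order. In a limma fit to the 4 arrays of 1 h alone, with 2 residual degrees of freedom, 0 genes were called and 122 had an unadjusted p under 0.05. With the arrays of 0.25, 1 and 2 h alone, Errfi1 and Per1 were called and no other gene. The differences were the same in that fit, but the SE depended on which times were used. It was 0.18 for Per1 and 0.27 for Fam107a, against 0.34 and 0.31 in the main fit. For Adm and Pdk4 it was larger, at 0.25 and 0.24, against 0.22 for each in the main fit.

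**Figure D3:**
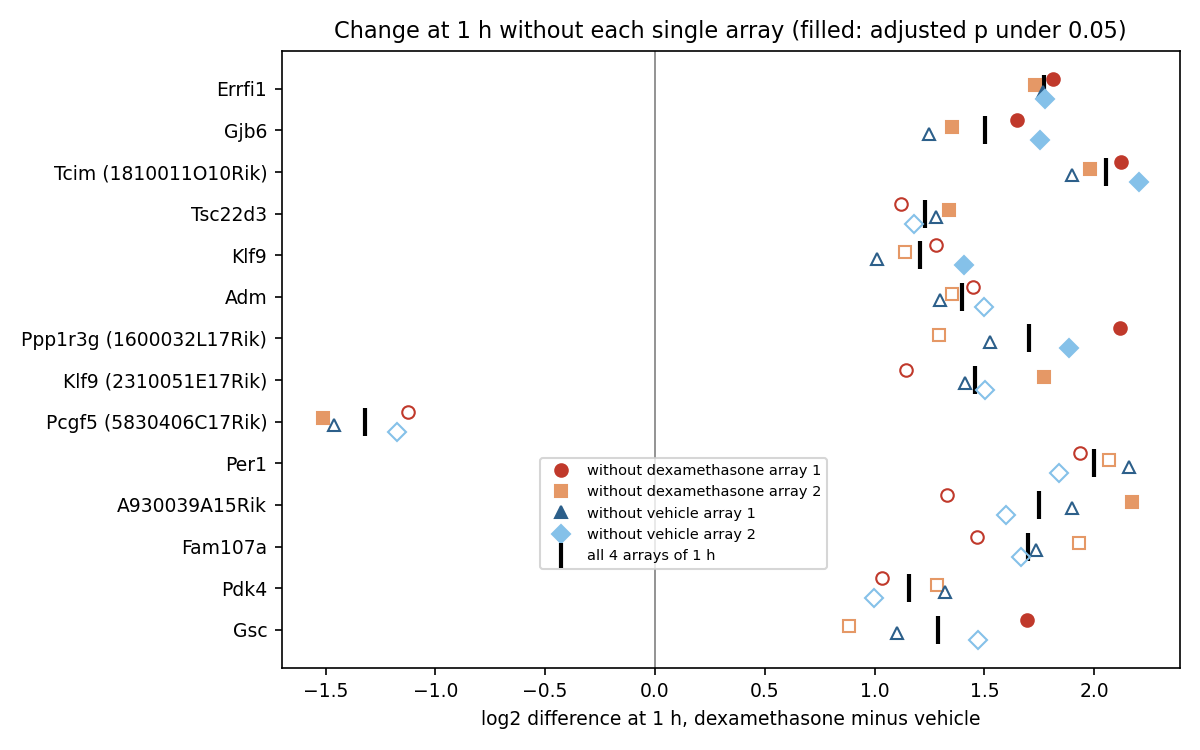
Log2 difference at 1 h, dexamethasone minus vehicle, of each called gene with all 4 arrays (bar) and without each array in turn (markers, filled where the adjusted p is under 0.05). Errfi1 has 4 filled markers between 1.73 and 1.81, while those of Per1 are open from 1.84 to 2.16.

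Several larger differences were not called, and some of these genes are known early glucocorticoid responders. Sgk1, a kinase that regulates ion channels, stood at 13.56 and 13.19 in dexamethasone cultures, against 12.44 and 11.91 in vehicle cultures (1.20, SE 0.31, limma adjusted p = 0.55). Txnip, which binds thioredoxin and limits glucose uptake, stood at 12.76 and 12.69 in dexamethasone cultures, against 11.22 and 11.79 in vehicle cultures (1.22, SE 0.25, limma adjusted p = 0.069). In both genes every dexamethasone array lay above every vehicle array, as for 9.2% of all genes. The transcriptional activator Csrnp1, listed as Axud1, stood at 12.33 and 12.78 in dexamethasone cultures, against 11.18 and 11.38 in vehicle cultures (1.27, SE 0.36, limma adjusted p = 0.85). Tob2, an antiproliferative protein that promotes mRNA deadenylation, stood at 10.38 and 10.59 in dexamethasone cultures, against 9.28 and 9.15 in vehicle cultures (1.27, SE 0.36, limma adjusted p = 0.85). Larger still, and also not called, were Matk (listed as Chk, a kinase that restrains Src-family kinases, 1.41), 9930004G02Rik (1.41), E230024B12Rik (1.40) and B230312E02Rik (1.40). Leaving out 1 array of 1 h took these to 1.04 to 1.79 for Matk, 0.94 to 1.87 for 9930004G02Rik, 0.89 to 1.92 for E230024B12Rik and, without dexamethasone array 2 or 1, to 0.75 or 2.04 for B230312E02Rik.

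The largest falls that were not called included growth and inflammatory response genes. Phlda1, an early response gene of growth factor signalling, stood at 8.63 and 9.64 in dexamethasone cultures, against 10.88 and 10.60 in vehicle cultures (-1.60, SE 0.39, limma adjusted p = 0.31). The cytokine gene Tnf stood at 5.54 and 5.84 in dexamethasone cultures, against 7.28 and 7.26 in vehicle cultures (-1.58, SE 0.37, limma adjusted p = 0.25), with 1 of the 2 dexamethasone arrays above background. Each gene's groups were apart, as for 9.32% of all genes in this direction. Hes1, the Notch-responsive repressor, stood at 8.92 and 9.02 in dexamethasone cultures, against 10.43 and 9.93 in vehicle cultures (-1.22, SE 0.27, limma adjusted p = 0.12). The stress-inducible Ier3 stood at 9.85 and 10.12 in dexamethasone cultures, against 11.41 and 10.84 in vehicle cultures (-1.14, SE 0.24, limma adjusted p = 0.10). The splicing factor gene Tra2a (listed as 1500010G04Rik, -1.41), C230096K16Rik (-1.19), Tmem176a (-1.16) and the RNA-binding Msi1 (listed as Msi1h, -1.07) completed the group. Several of these sizes moved when 1 array was left out, which also leaves the numbers unequal between treatments. Phlda1 ran from -2.10 without dexamethasone array 2 to -1.10 without dexamethasone array 1. Tra2a was at -2.20 without dexamethasone array 1 and -0.61 without dexamethasone array 2, C230096K16Rik at -0.45 without vehicle array 1 and -1.94 without vehicle array 2, and Tmem176a at -0.63 without vehicle array 1 and -1.69 without vehicle array 2.

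Some calls at 1 h also shifted when the spread of a vehicle pair of another time was taken out of the fit. The vehicle arrays of 12 h correlated at 0.964, the lowest of the 16 groups, and vehicle 12 h array 1 stood far from array 2 for Csrnp1 (11.45 and 9.53), Hes1 (9.99 and 8.55) and Tnf (7.05 and 5.29). Without vehicle 12 h array 1 the 14 calls remained and 5 were added. Csrnp1 (adjusted p = 0.0162) and Txnip (adjusted p = 0.0327) rose, as did Spsb1, an adaptor of a ubiquitin ligase (0.98, adjusted p = 0.0067, against 0.071 with that array). Hes1 (adjusted p = 0.00072) and Tnf (adjusted p = 0.0102) fell. The differences at 1 h are the same in both fits, while the SE was smaller without that array. It was 0.17 for Hes1, against 0.27 with that array, but for Txnip 0.24 against 0.25. Only array 1 was left out. Removing either array of a pair takes the spread of that pair out of the fit, so the fit does not say which array stood apart. With every array kept, Txnip was also called under trended and robust variances (limma adjusted p = 0.029), so its call did not turn on that pair alone.

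Fos and Egr1 had their highest mean of the first 3 times at 1 h in both treatments. Fos, a subunit of AP-1, averaged 11.25, 12.31 and 9.93 in dexamethasone cultures at 0.25, 1 and 2 h, against 11.07, 12.42 and 10.48 in vehicle cultures. Egr1, a zinc finger factor, averaged 12.92, 14.66 and 11.22 in dexamethasone cultures, against 13.03, 14.37 and 11.20 in vehicle cultures. Neither was called at 1 h (-0.10, SE 0.39 and 0.30, SE 0.44), and for Fos the sign turned without dexamethasone array 2 (0.00) and without vehicle array 1 (0.17). Phlda1 averaged 9.82, 9.14 and 8.63 in dexamethasone cultures at these times, against 9.57, 10.74 and 10.83 in vehicle cultures. Ier3 averaged 9.91, 9.98 and 9.43 in dexamethasone cultures, against 10.08, 11.12 and 10.52 in vehicle cultures. Vehicle cultures at 1 h thus stood above those at 0.25 h for all 4 genes, a difference between times that was not tested. Csrnp1 averaged 9.38, 12.55 and 11.93 in dexamethasone cultures, against 9.54, 11.28 and 10.76 in vehicle cultures, above its 0.25 h level in both treatments. Hes1 averaged 9.25, 8.97 and 8.73 in dexamethasone cultures, against 9.14, 10.18 and 9.42 in vehicle cultures. Txnip averaged 12.55, 12.73 and 13.22 in dexamethasone cultures, against 12.73, 11.51 and 11.95 in vehicle cultures. For Hes1 and Txnip the vehicle mean of 1 h stood farther from the 0.25 h means than the dexamethasone mean did.

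Of 32 measured glucocorticoid receptor targets, 8 rose (Per1, Errfi1, Fam107a, Gjb6, Adm, Tsc22d3, Klf9 and Pdk4), 0 fell and 24 did not pass, where 0.063% of all genes were called higher. The list was drawn up with earlier results of these samples known, so its count is no independent evidence. Its median difference was 0.41, against 0.01 for all genes, and 25 of 32 were above 0, against 51.8% of all genes. Over the alternative settings that median ran from 0.19 to 0.62. Fkbp5, the co-chaperone that restrains the receptor and a standard marker of its activity, stood at 7.77 and 7.91 in dexamethasone cultures, against 7.05 and 7.65 in vehicle cultures (0.49, SE 0.23, limma adjusted p = 1), with 0.19 without vehicle array 1 and 0.79 without vehicle array 2. The phosphatase gene Dusp1 was bright and level, at 13.46 and 13.43 in dexamethasone cultures, against 13.60 and 13.54 in vehicle cultures (-0.13, SE 0.17). Glul (glutamine synthetase) gave 0.66, Ddit4 (an mTOR inhibitor) 0.53, Zfp36 (an mRNA decay factor) 0.37 and Angptl4 (a lipase inhibitor) -0.27, none of them called.

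The receptor and its chaperones had 0 of 11 measured members called (median -0.12, -0.15 to 0.01 over the settings). An unadjusted p under 0.05 was found for 0 of them, where 1.48% of all genes had one in either direction. Nr3c1, the receptor itself, was read by a dim probe at 6.61 and 5.33 in dexamethasone cultures, against 6.74 and 6.05 in vehicle cultures (-0.43, SE 0.41). Its sign turned without dexamethasone array 2 (0.21), although dexamethasone lay below vehicle on the arrays of each number. Hsd11b2 (0.30) and Stip1 (-0.46) were the extremes. Of 18 immediate early genes 0 were called (2 lower at an unadjusted p under 0.05), with a median of -0.34 (-0.40 to -0.13 over the settings), and the groups were apart with dexamethasone lower in 9 and higher in 2, where 9.32% and 9.2% of all genes were so. Ier3, Junb (-0.98), Arc (-0.77) and Fosb (-0.72) were the lowest. Of 19 cytokines, chemokines and inflammatory enzymes 0 were called (median -0.16, -0.21 to -0.03 over the settings, 5 lower and 1 higher at an unadjusted p under 0.05), with Ch25h (-1.01), Ccl2 (-0.69) and Cxcl10 (-0.68) below 0 and the neutrophil chemokine Cxcl1 above it (0.97, SE 0.34, limma adjusted p = 1).

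In the list of NF-kappaB feedback and mRNA decay 0 of 14 were called (median 0.12, -0.01 to 0.27 over the settings, 3 higher at an unadjusted p under 0.05). Over all genes 1.48% had such a p in either direction. Nfkbia, the inhibitor that holds NF-kappaB in the cytoplasm, stood at 11.53 and 11.32 in dexamethasone cultures, against 10.78 and 10.01 in vehicle cultures (1.03, SE 0.35, limma adjusted p = 1). Its difference was 1.42 without vehicle array 1 and 0.65 without vehicle array 2, and Relb gave -0.30. Other lists held 1 called member each, always a gene described above, where 0.0679% of all genes were called. They were Errfi1 of 14 EGF receptor and MAP kinase feedback genes (median -0.11, with Dusp10 at -0.82), Per1 of 17 clock genes (median 0.09, with Ciart at 0.91 and Bhlhe40 at -0.34) and Klf9 of 14 Krüppel-like and C/EBP factors (median 0.11, with Klf15 at 0.96 and Klf3 at -0.90). Gjb6 was the called member of 13 connexins and junction proteins (median 0.13, with Cdh2 at -0.15) and Pdk4 of 17 genes of fuel switching (median 0.02, with the lowest member, Cpt1a, above background on 0 of the 4 arrays). Polycomb complex 1 had 0 of 15 called under the listed symbols (median -0.04, Pcgf2 at -0.69 and Rnf2 at 0.32), since the probe that fell is listed under another name, and 1 was lower at an unadjusted p under 0.05. Heat shock and unfolded protein genes had 0 of 14 (median -0.01, 1 higher at an unadjusted p under 0.05, Hsph1 at 0.45 and Ddit3 at -0.29). Over the settings the medians of the clock list (0.00 to 0.24), the Polycomb list (-0.05 to 0.03) and the heat shock list (-0.17 to 0.20) took both signs, and those of the EGF receptor list stayed below 0 (-0.14 to -0.04). Those of Krüppel-like factors (0.00 to 0.29), connexins (0.03 to 0.22) and fuel genes (0.00 to 0.07) stayed above 0.

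**Figure D4:**
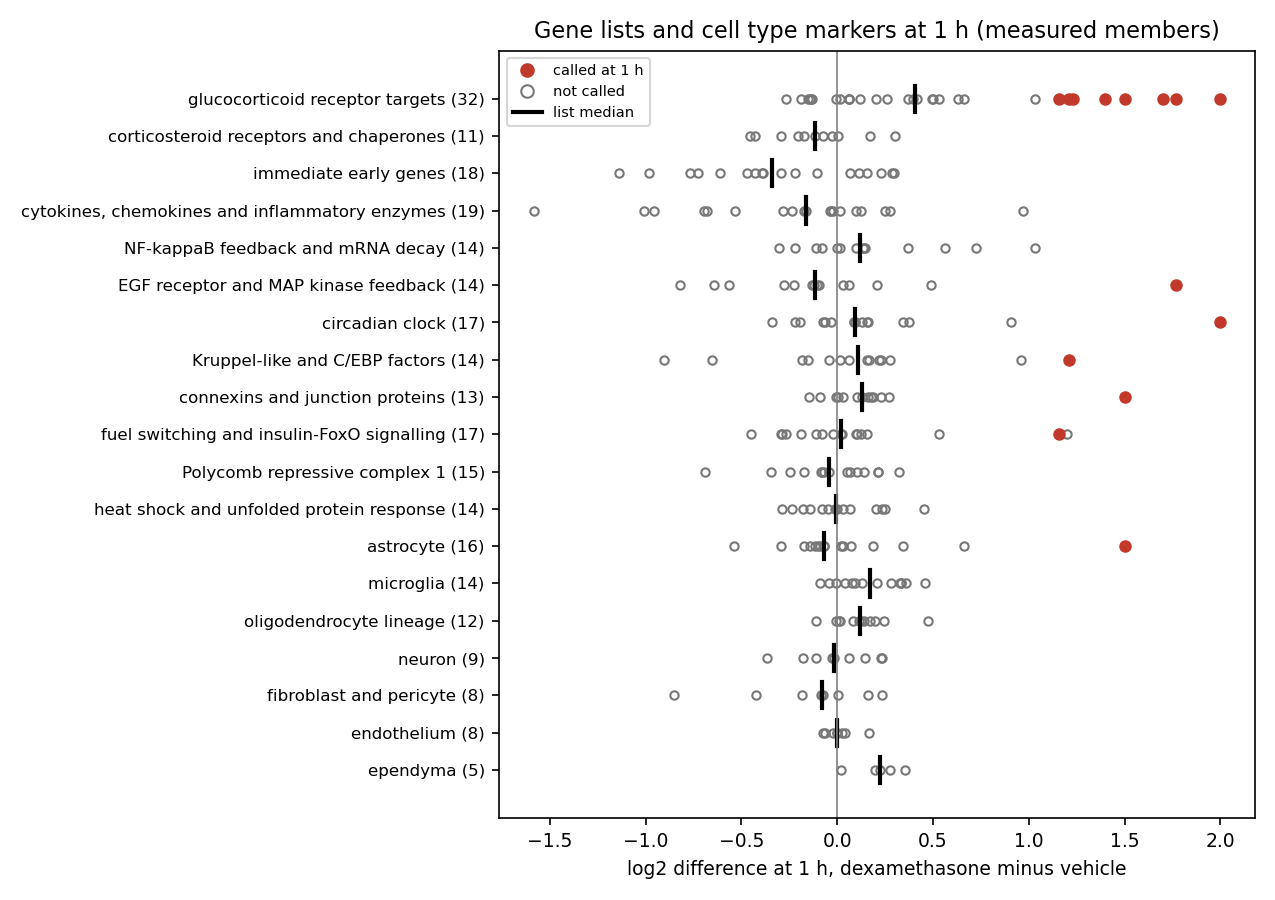
Log2 difference at 1 h of every measured member (points) and the median of each list (bar), dexamethasone minus vehicle, with called genes filled. The receptor targets have a median of 0.41 and 8 called members, and the immediate early genes have a median of -0.34 and 0 called.

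Of 16 astrocyte markers Gjb6 alone was called (median -0.07, -0.07 to 0.02 over the settings), where 0.0679% of all genes were called. Gfap, the astrocyte intermediate filament, stood at 13.91 and 14.44 in dexamethasone cultures, against 15.05 and 14.39 in vehicle cultures (-0.54, SE 0.80, from -0.87 without vehicle array 2 to -0.21 without vehicle array 1). Medians of lists with no called gene were 0.17 for 14 microglia markers (-0.05 to 0.40 over the settings), 0.12 for 12 oligodendrocyte lineage markers (-0.04 to 0.26), -0.01 for 9 neuronal markers (-0.15 to 0.21), -0.08 for 8 fibroblast and pericyte markers (-0.19 to -0.01), 0.00 for 8 endothelial markers (-0.19 to 0.21) and 0.22 for 5 ependymal markers (0.04 to 0.41). Tyrobp (0.46), Gpr17 (0.48), Stmn2 (-0.37), Col1a1 (-0.85), Flt1 (0.17) and Ak7 (0.35) were the widest members. Col1a1 was the 1 member of these lists with an unadjusted p under 0.05, where 1.48% of all genes had one. The part of these cell types in the results above was not tested, and fewer cells of a type cannot be told apart from less RNA per cell.

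Before 1 h no transcript was called, and at 2 h all of the 14 were called again. At 0.25 h, on arrays not used at 1 h, limma called 0 genes and 206 (0.998%) had an unadjusted p under 0.05, 3 of the 14 had the sign they had at 1 h, and the 13 risers had a median of -0.13. Errfi1 gave -0.01 at 0.25 h, Tcim -0.11, Gjb6 0.22 and Per1 0.17. Widest were Gsc (-0.52, SE 0.26) and the Pcgf5 probe (0.46, SE 0.23), both opposite to their sign at 1 h, and the dexamethasone arrays of the Pcgf5 probe lay above its vehicle arrays at 0.25 h. At 2 h the 14 had the direction of 1 h (0.582% of genes were called higher and 0.126% lower), and the median of the 13 risers was 2.27. Fam107a stood at 3.21, Gjb6 at 3.71, Pdk4 at 2.39 and the Pcgf5 probe at -0.90 at 2 h. In the same direction 13 were called at 4 h, 11 at 6 h, 10 at 12 h, 11 at 18 h and 10 at 24 h, and none in the opposite one. Genes called higher and lower made up 1.55% and 0.814% at 4 h, 1.4% and 0.683% at 6 h, 2.21% and 3.47% at 12 h, 1.65% and 1.96% at 18 h, and 1.84% and 2.03% at 24 h. All these calls use 1 common estimate of each gene's spread.

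The difference between the responses at 1 h and 0.25 h was called for 0 genes, with 302 at an unadjusted p under 0.05. Closest were Errfi1 (1.78, SE 0.30, limma adjusted p = 0.066), Tcim (2.16, SE 0.39, limma adjusted p = 0.067) and the Pcgf5 probe (-1.78, SE 0.32, limma adjusted p = 0.067). A start between these times is therefore described by the values and was not established by that test.

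The difference between the responses at 2 h and 1 h was called for 12 genes (0.0582%), all higher at 2 h, and for 0 lower (0%). Fkbp5 (difference 2.94, SE 0.29) had 0.49 at 1 h and 3.43 at 2 h, and Lcn2, a siderophore-binding lipocalin, had -0.14 at 1 h and 3.45 at 2 h. Bcat1 (a branched-chain aminotransferase), Plin4 (a lipid droplet coat protein listed as S3-12) and Slc45a3 were likewise not called at 1 h (0.29, -0.14 and 0.60) and stood at 3.17, 2.46 and 2.73 at 2 h. Gjb6 alone of the 12 was called at both times. Of the genes left uncalled at 1 h, Sgk1 (1.94), Txnip (1.27), Tob2 (1.75) and Nfkbia (1.56) rose at 2 h, and Phlda1 (-2.19) and Ier3 (-1.10) fell. Tnf (-0.66) and Hes1 (-0.68) were not called at 2 h either.

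**Figure D5:**
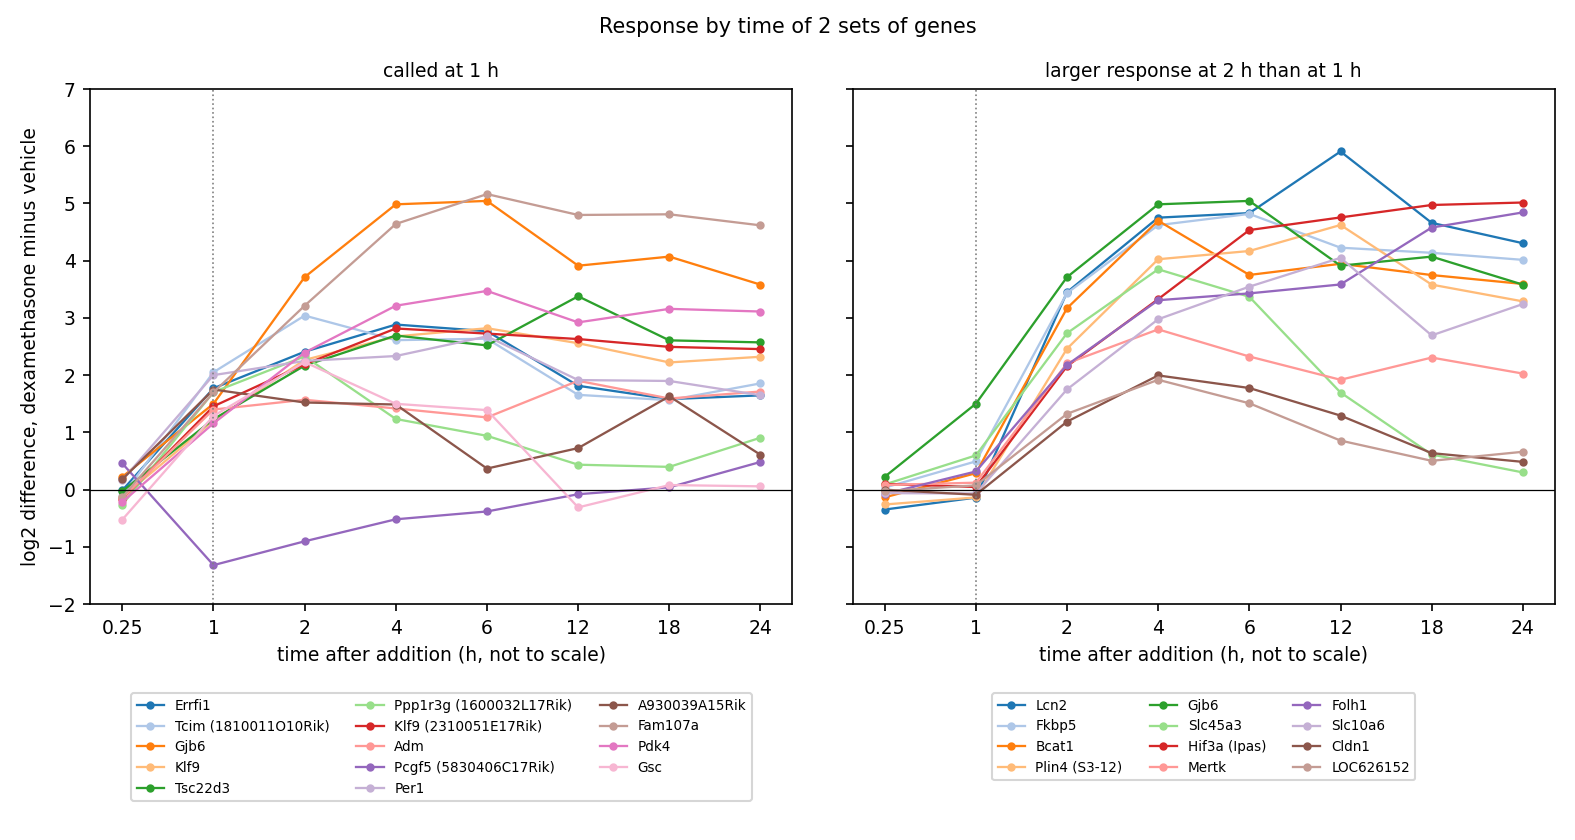
Log2 difference, dexamethasone minus vehicle, at the 8 times for genes called at 1 h (left) and for genes whose response was larger at 2 h than at 1 h (right), with the dotted line at 1 h. The left set runs from -0.52 to 0.46 at 0.25 h and from -1.32 to 2.05 at 1 h, and on the right Lcn2 is at -0.14 at 1 h and 3.45 at 2 h.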

How the data were processed

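Total RNA was measured on 36 Illumina BeadChip arrays, read with GenomeStudio, per the submitters' processing notes (version not given in the sources used here). The deposited intensities are linear, 1 per probe and array for 45281 probes, from 44.8 to 49460.6. They had been quantile normalized by the authors, as the sorted columns differ by at most 0.5 beyond the 10 lowest values and array medians run from 93.7 to 94. A further table with 72 columns of values whose names match no sample was used for gene symbols only. Here the deposited intensities were corrected by normexp (offset 16), which takes the place of a plain log2 of the deposited values. Background was set at the 99th percentile of the spread mirrored about the mode (intensity 91.7). Probes above it on 2 or more arrays were kept (29498), and the brightest probe stood for each of 20633 symbols. Left out were 40 probes whose symbol had become a date and 22 with several or malformed symbols. Of the symbols 12031 were current in RefSeq, 3965 were updated and 4637 had no match.

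A limma fit (version 3.58.1, R 4.3.3) of 16 group means to the 36 arrays had 20 residual degrees of freedom, to which empirical Bayes added 5.23, and p-values were adjusted by Benjamini-Hochberg over the genes of a comparison. Comparisons were 1 h, its difference from 0.25 h and from 2 h, and the other times for named genes. The fit was tested on simulated data. Alternatives changed the background correction, normalization, filter, variances, probes, arrays and a replicate block. The number of arrays limits the precision. Named genes are all called ones, the 8 largest uncalled rises and falls with arrays apart and above background, the extremes of each list, 13 set genes and the 6 largest differences between times. Spsb1 and the other genes named beside lists or arrays were chosen after their values were seen. The members, lists and rule were chosen with earlier results of these data known. Promoters come from RefSeq (GRCm38.p6). Plots used matplotlib 3.10.9 (Python 3.11.15).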

Additional observations from a re-analysis of the deposited data

Results flagged for a closer look

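For 12 genes the response at 2 h differed from the response at 1 h by the limma test of that difference (adjusted p from 4.7e-06 to 0.019), on arrays that the comparisons do not share. All 12 differences were positive. They were 3.59 for Lcn2 (3.45 at 2 h against -0.14 at 1 h), 2.94 for Fkbp5, 2.88 for Bcat1 and 2.60 for Plin4, listed as S3-12. Gjb6 had 2.21, being called at 1 h (1.5) and again at 2 h (3.71). The difference was 2.14 for Slc45a3, 2.11 for the Hif3a probe listed as Ipas (2.16 at 2 h and 0.05 at 1 h), and 2.09 for Mertk, a receptor for the engulfment of dying cells (2.21 at 2 h and 0.12 at 1 h). It was 1.86 for Folh1, a glutamate carboxypeptidase (2.18 at 2 h and 0.32 at 1 h), 1.82 for the steroid sulfate carrier Slc10a6 (1.75 at 2 h and -0.07 at 1 h), 1.28 for the claudin Cldn1 (1.19 at 2 h and -0.09 at 1 h) and 1.25 for the predicted locus LOC626152 (1.32 at 2 h and 0.07 at 1 h). The 2 h groups hold 3 arrays per treatment and the 1 h groups 2.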

How the results depend on the processing

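The 14 calls at 1 h became 0 with the 4 arrays of 1 h alone and 2 with the arrays of 0.25, 1 and 2 h alone, which leave fewer samples to estimate the spread. Without single arrays of 1 h they were 1 to 7. With the replicate block, replicate number within each time, 43 genes were called (28 higher, 15 lower, 0.208%), the 14 among them. Deviations of equal numbers correlated at 0.80 at 0.25 h, 0.73 at 1 h, 0.68 to 0.86 at 2 h, 0.35 to 0.57 at 4 h and 0.51 at 12 h, but at 0.03 at 6 h, -0.05 at 18 h and -0.13 at 24 h. No label says what a number shares and 1 h has 2 pairs, so the pairing is not established. Under the block some of the genes named above as uncalled were called (limma adjusted p from 0.000161 for E230024B12Rik to 0.0447 for Sgk1). Higher were E230024B12Rik, 9930004G02Rik, B230312E02Rik, Tob2, Txnip, Spsb1, Nfkbia, Klf15 and Sgk1. Lower were Hes1, Phlda1, Klf3, C230096K16Rik, Ier3 and Msi1. Other settings gave 11 to 19 calls, with 11 where all 4 arrays had to lie above background, 12 with array weights, 16 with variances that were trended and robust and 19 without vehicle 12 h replicate 1. Apart from leaving out arrays of 1 h, Gsc was called in 4 of 11 settings, and Pdk4 lost its call with array weights (adjusted p = 0.072).

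The difference between 1 h and 0.25 h went from 0 calls to 2 with no background correction, 2 with a normexp offset of 50, 3 with cyclic loess, 1 with trended and robust variances, 6 without vehicle 12 h replicate 1 and 14 with the replicate block. It had 0 to 2 without single arrays of 1 h. The difference between 2 h and 1 h went from 12 calls to 6 with the arrays of 0.25, 1 and 2 h alone and 28 with the replicate block, and had 8 to 10 without single arrays. Signs turned, never on a called gene, for Fos (0.0046 without dexamethasone replicate 2 and 0.17 without vehicle replicate 1, the lowest value being -0.37), Gja1 (-0.15 without dexamethasone replicate 1 and -0.06 without vehicle replicate 2) and Nr3c1 (0.21 without dexamethasone replicate 2, the lowest value being -1.07). Fits without single arrays of 1 h also leave the numbers unequal between treatments. The cause of these shifts was not tested. Gsc, Ppp1r3g, A930039A15Rik, Tnf and Nr3c1, among others, lay below the background level on at least 1 array of 1 h, which limits how well their sizes are known.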

Other observations

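The arrays numbered 1 and 2 at 1 h differed in the same genes in both treatments. At least 2-fold apart between the numbers in dexamethasone and in vehicle cultures alike were 578 genes, of which 530 were higher on the arrays numbered 1. Tsc22d1, a transcription regulator related to Tsc22d3, stood at 10.70 in dexamethasone array 1 and 6.58 in dexamethasone array 2, and at 10.69 in vehicle array 1 and 6.56 in vehicle array 2. Msn, a linker of membrane and actin, stood at 11.02 and 7.55 in the dexamethasone arrays and at 11.41 and 7.40 in the vehicle arrays. The helicase gene Ddx5 stood at 9.52 and 5.85 in the dexamethasone arrays and at 9.30 and 6.14 in the vehicle arrays. The mitochondrial mt-Nd4l stood at 10.97 and 6.16 in the dexamethasone arrays and at 10.48 and 6.40 in the vehicle arrays. These genes, shown because they set the numbers apart, were chosen after their values were seen.

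The resemblance crossed the numbers between times. Dexamethasone 1 h array 1 correlated at 0.990 and 0.992 with the dexamethasone and vehicle arrays numbered 2 of 0.25 h, but at 0.973 and 0.972 with those numbered 1. Dexamethasone 1 h array 2 correlated at 0.992 and 0.993 with the dexamethasone and vehicle arrays numbered 1 of 0.25 h, but at 0.970 and 0.974 with those numbered 2. Arrays of unlike number were thus the closer ones between these times. What they share was not tested.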
